A study of Drosophila melanogaster with 6 samples.

Results

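The genes described here handle the fly's circulating and stored sugars, the disaccharide trehalose and the polymer glycogen. There were 8 of them, taken by symbol from the array's probe table: Treh, Tps1, Tret1-1 and Tret1-2 for trehalose, and Glyp, Glys, AGBE and UGP for glycogen. They are 8 of 11982 genes measured, and each was read by a single probe set of 18769 tested. Expression was measured on Affymetrix arrays as RMA values on the log2 scale, where a difference of 1 is a 2-fold change, in adult Drosophila melanogaster heads aged 25 days (aged, 3 arrays) and 2 days (young, 3 arrays). Flies of both ages had the W* background and carried P{GawB}elavC155, a GAL4 enhancer trap in the neuronal gene elav, so no age group lacked the insertion. Neither the sex of the flies nor the number of heads behind an array is in the labels.

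Trehalose is the main blood sugar of insects. Tps1, trehalose-6-phosphate synthase, makes it in the fat body, transporters of the Tret1 type carry it across membranes, including into the glia that wrap the brain, and Treh, trehalase, splits it into glucose. Glycogen is the storage form. UGP supplies UDP-glucose, the sugar donor of both pathways, Glys (glycogen synthase) adds glucose to the growing chain, AGBE (branching enzyme) puts in the branches, and Glyp (glycogen phosphorylase) releases glucose units as glucose-1-phosphate.

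In aged heads Treh rose, and the genes for synthesis and breakdown of glycogen, Glys and Glyp, fell. The other 5 genes did not pass the test. Treh was 1.31-fold higher in aged heads, Glyp was 1.58-fold lower and Glys was 1.42-fold lower. Of the 8 genes, 1 was called higher, against 13.0% of all probe sets, and 2 were called lower, against 8.70% (limma, Benjamini-Hochberg adjusted over all probe sets, threshold 0.05). In either direction 3 of 8 passed, while 21.7% of all probe sets and 26.5% of all genes did, as did 37.3% of genes that reached the median level of all probe sets (4.92), as 7 of these 8 did. On all 6 arrays the count of calls did not stand apart from that last share, and nothing is read from it. These background shares depend on the arrays: 2302 probe sets passed without aged replicate 1 and 2432 without aged replicate 2, against 4071 on all arrays, while the same 3 of the 8 genes passed. With each array centred on its median, 1859 probe sets were higher and 1951 lower, against 2438 and 1633 as deposited, and the calls of these 3 genes did not change. Whether the 3 arrays of an age hold independently collected flies is not in the labels, so the p-values may cover technical spread alone, and so few arrays limit the precision. In whole heads, fewer cells of a type and less RNA per cell cannot be told apart.

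**Figure D1:**
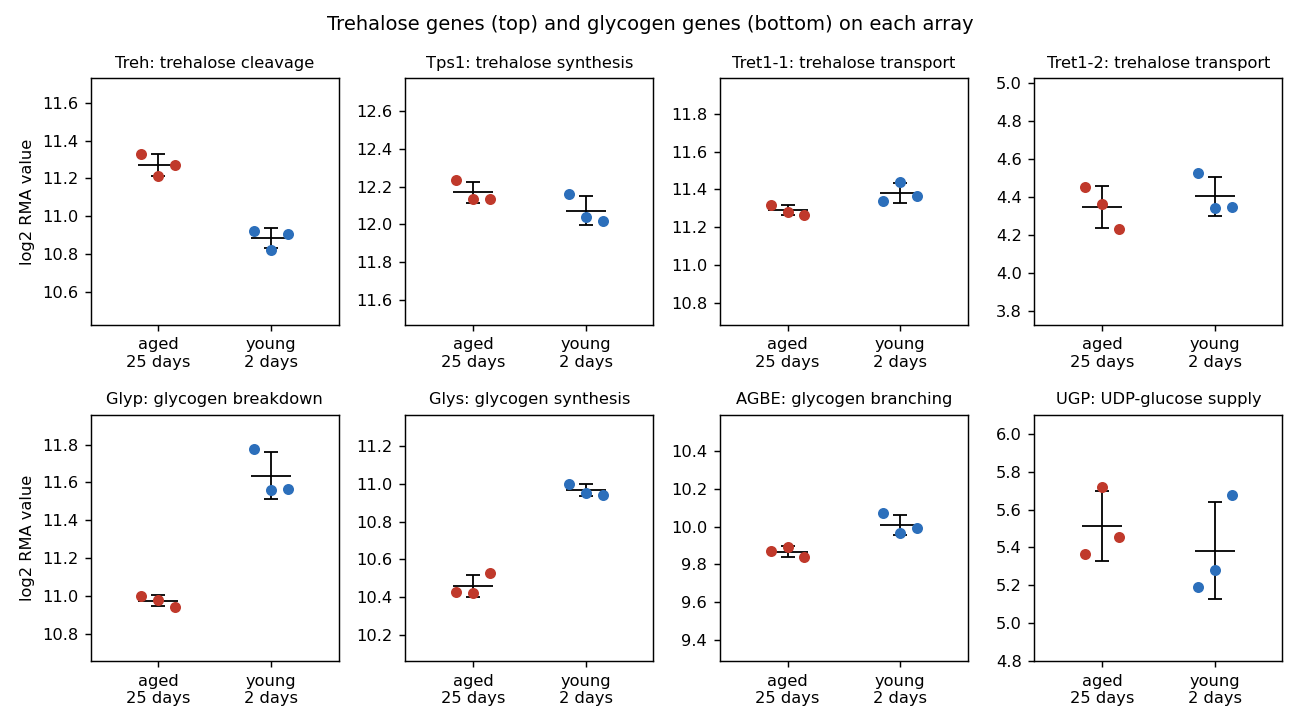
Log2 RMA value (vertical axis, the same span in every panel) of each gene on the 3 aged (red, left) and 3 young (blue, right) arrays, with the mean and SD in black. Treh stands higher in aged heads and Glyp and Glys lower with no overlap, whereas Tps1, Tret1-2 and UGP overlap.

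Treh (CG9364) read 11.33, 11.21 and 11.27 in aged heads, against 10.92, 10.82 and 10.91 in young heads. All aged arrays lay above all young arrays, and the nearest of them were 0.29 apart. The means were 11.27 ± 0.06 in aged heads and 10.88 ± 0.05 in young heads (log2 value ± SD, n = 3 each), a rise of 0.39 ± 0.07 (difference ± SE, limma adjusted p = 0.00731, interval 0.23 to 0.54 at 95% confidence). Trehalase thus had the only call among the 4 trehalose genes. The call was lost (adjusted p = 0.0521, difference 0.36) when young replicate 2 and aged replicate 3, which stand apart from the other arrays at 155 and 25 probe sets, were left out together. The identifier of this probe set ends in _s_at, which marks probes that can be shared between genes.

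Tps1 (CG4104), the synthase, read 12.23, 12.14 and 12.14 in aged heads, against 12.16, 12.04 and 12.02 in young heads, and the ages overlapped. The difference of 0.10 ± 0.07 did not pass (adjusted p = 0.382), and its interval, -0.07 to 0.26, leaves room for a rise of up to about that upper bound.

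Of the transporters, Tret1-1 (CG30035) had 11.32, 11.28 and 11.27 in aged heads, against 11.34, 11.44 and 11.37 in young heads. The aged arrays lay below the young ones by as little as 0.02, and the difference of -0.09 ± 0.06 did not pass (adjusted p = 0.347, interval -0.24 to 0.06). Its paralog Tret1-2 (CG8234), which is its direct neighbour in the RefSeq annotation, read 4.45, 4.36 and 4.23 in aged heads, against 4.52, 4.34 and 4.35 in young heads. These values lie below the median of all probe sets at both ages, near background, where a change would be compressed. The difference was -0.06 ± 0.09 (adjusted p = 0.694) and turned to 0.0029 without aged replicate 3 and to 0.0043 without young replicate 1, so it had no settled direction.

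Glyp (CG7254), the phosphorylase, differed most among the 8 genes. It read 11.00, 10.98 and 10.94 in aged heads, against 11.78, 11.56 and 11.57 in young heads. The ages were separated by 0.56, and young replicate 1 stood above the other young arrays. Means were 10.98 ± 0.03 in aged heads and 11.63 ± 0.12 in young heads (n = 3 each), a difference of -0.66 ± 0.08 (adjusted p = 0.00194, interval -0.85 to -0.47). Only 4.98% of all probe sets had a larger absolute difference.

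Glys (CG6904), the synthase, read 10.43, 10.42 and 10.53 in aged heads, against 11.00, 10.95 and 10.94 in young heads. Again all aged arrays were below all young arrays, with a gap of 0.41. Means were 10.46 ± 0.06 in aged heads and 10.96 ± 0.03 in young heads (n = 3 each), a difference of -0.50 ± 0.06 (adjusted p = 0.00240, interval -0.66 to -0.35). The enzyme that builds glycogen and the one that takes it apart thus had lower transcript levels together. The Glys probe set also has an identifier ending in _s_at.

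AGBE (CG33138), the branching enzyme, had values on the same side but much closer together. It read 9.87, 9.89 and 9.84 in aged heads, against 10.07, 9.96 and 9.99 in young heads. The ages did not overlap, with a gap of 0.07, and the difference of -0.14 ± 0.06 did not pass (adjusted p = 0.162, interval -0.29 to 0.01). UGP (CG4347), which feeds both pathways, read 5.36, 5.72 and 5.46 in aged heads, against 5.19, 5.28 and 5.68 in young heads. It was the most variable of the 8, with 8.62% of all probe sets more variable within ages, and it lay little above the median of all probe sets. Its difference of 0.13 ± 0.15 did not pass (adjusted p = 0.577), and the interval of -0.21 to 0.48 would hold a rise as large as that of Treh. The size rests on single arrays, since it was 0.026 without aged replicate 2, 0.034 without young replicate 1, 0.08 without young replicate 2, 0.21 without aged replicate 1 and 0.28 without young replicate 3.

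**Figure D2:**
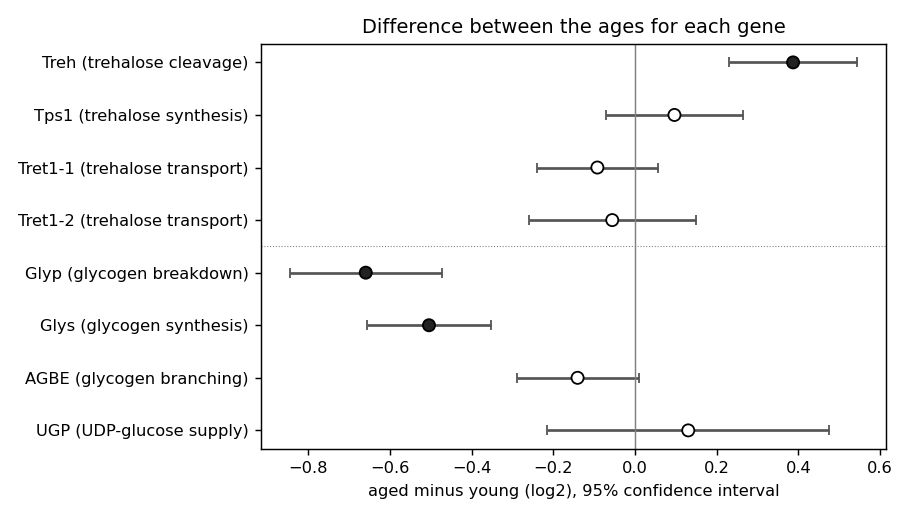
Difference between the ages for each gene (horizontal axis, aged minus young on the log2 scale) with its 95% confidence interval from limma; filled points passed at an adjusted p under 0.05. Treh lies to the right of 0, Glyp and Glys to the left, and the intervals of the other 5 genes include 0.

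Without regard to the test, the arrays of the ages did not overlap for 5 of the 8 genes, where this held for 40.8% of all probe sets. Aged heads were above young heads for 1 (Treh), against 21.7% of all probe sets, and below for 4 (Tret1-1, Glyp, Glys and AGBE), against 19.2%. Counted by gene, aged heads were above for 3177 and below for 2513 of 11982. As with the calls, nothing is read from these counts. The median difference was 0.02 over the 4 trehalose genes and -0.32 over the 4 glycogen genes, beside -0.0031 over all 11982 genes. Both groups hold members at either side of 0, so the medians do not stand for every gene in them.

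Trehalose and glycogen genes were then set against each other within each array, which cancels any shift common to the whole array. The log2 ratio of Treh to Glyp, taken relative to its young mean, was 1.08, 0.99 and 1.08 on the aged arrays, against -0.10, 0.01 and 0.09 on the young arrays. Trehalase had thus moved relative to glycogen phosphorylase by 1.05, or 2.07-fold. The change of a ratio equals the difference between the changes of its genes given above, so it is not a separate result. The ratio of Tps1 to Glys, the synthases, was 0.70, 0.61 and 0.50 on the aged arrays, against 0.05, -0.02 and -0.03 on the young arrays, a change of 0.60 or 1.52-fold.

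Within each pathway the shifts were smaller. The ratio of Treh to Tps1, cleavage over synthesis of trehalose, changed by 0.29, with 0.28, 0.27 and 0.32 on the aged arrays and -0.05, -0.03 and 0.08 on the young arrays. The ratio of Glyp to Glys, breakdown over synthesis of glycogen, changed by -0.15, with -0.10, -0.11 and -0.25 on the aged arrays and 0.11, -0.06 and -0.05 on the young arrays. The ages did not overlap in any of the 4 ratios. The two-sided exact permutation p was 0.1 for each, and 0.1 after adjustment over the 4 ratios, the smallest value that 3 arrays against 3 can give, so this test could not pass the threshold. The ratio of Glyp to Glys was the least steady of them. Its change was -0.10 without young replicate 1 and -0.10 without aged replicate 3 (exact permutation p = 0.3 for both), and -0.13 after quantile normalization (exact permutation p = 0.2).

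**Figure D3:**
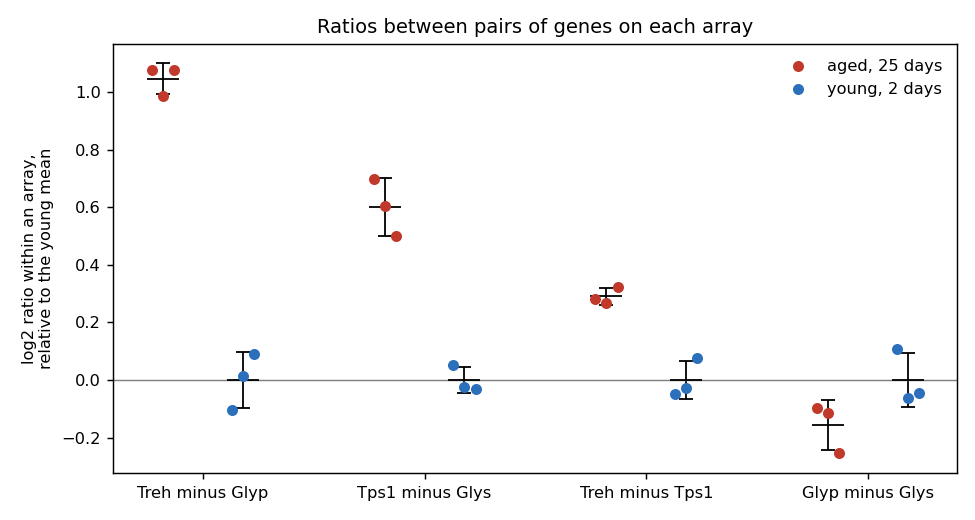
Log2 ratio of the first gene to the second on each array (vertical axis, relative to the mean of the young arrays) for 4 gene pairs, aged arrays in red on the left and young arrays in blue on the right of each pair, with mean and SD in black. The ratio of Treh to Glyp moves most, by 1.05, and that of Glyp to Glys least, by -0.15.

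Further genes of sugar handling were described from 5 lists. On the list of other trehalose genes, CG5171 rose by 0.31 ± 0.06 (adjusted p = 0.0121), with 9.40, 9.47 and 9.47 in aged heads against 9.13, 9.12 and 9.17 in young heads. The identifier of its probe set ends in _s_at, as do those of Treh and Glys. CG5171 no longer passed without aged replicate 2 (adjusted p = 0.0538) or with both young replicate 2 and aged replicate 3 left out (0.0782). Its neighbour on the list, CG5177, read 8.65, 8.64 and 9.55 in aged heads, against 9.49, 9.57 and 9.31 in young heads. Aged replicate 3 stood among the young arrays, the other aged arrays lay below all of them, and the difference of -0.51 ± 0.24 did not pass (adjusted p = 0.173). The list's last gene, CG6262, was near background at both ages.

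Of all 11982 genes, 15.8% were called higher and 10.7% lower. At an unadjusted p under 0.05 (limma), 2788 of them were higher and 2153 lower. On the list of other glycogen genes, 9 of 10 were measured and none passed (0 higher and 0 lower with limma). At an unadjusted p under 0.05 that list held 1 higher and 0 lower. Pgm2a came nearest, with a difference of 0.21 ± 0.08 (adjusted p = 0.111), and its second probe set passed with 0.36 ± 0.08 (adjusted p = 0.0139). Pgm1, phosphoglucomutase, which interconverts glucose-1-phosphate and glucose-6-phosphate, differed by 0.03 ± 0.07 and Gbs-70E, a glycogen-targeting subunit of protein phosphatase 1, by 0.07 ± 0.06 (neither passed).

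Further probe sets of Gyg and PhKgamma, singled out after their values were seen, went apart from the one that stands for the gene. Gyg encodes glycogenin, the primer of glycogen chains. Its brighter probe set differed by 0.05 ± 0.12 and did not pass, while the dimmer one fell, with 5.24, 5.35 and 6.08 in aged heads against 6.89, 6.86 and 6.93 in young heads (-1.34 ± 0.20, adjusted p = 0.00443). PhKgamma, the catalytic subunit of the kinase that activates glycogen phosphorylase, had 3 probe sets. The brightest differed by -0.05 ± 0.08 and did not pass, the second fell by 0.42 (adjusted p = 0.00385) and the dimmest rose by 0.41 (adjusted p = 0.0159). No single direction can be given for either gene.

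Among 25 genes of sugar uptake and phosphorylation, 1 rose, 2 fell and 22 did not pass, with a median of -0.10. Of all genes, 15.8% were called higher and 10.7% lower. CG8249 rose by 0.39 ± 0.08 (adjusted p = 0.0149), with 6.77, 6.99 and 6.83 in aged heads against 6.51, 6.52 and 6.40 in young heads. Its call was lost without aged replicate 2 (adjusted p = 0.0539), without young replicate 3 (0.0524), with both young replicate 2 and aged replicate 3 left out (0.0562) and after quantile normalization (0.0538). The 2 that fell, Hex-t2 and CG3285, were below the median of all probe sets at both ages. Glut1, a glucose transporter gene, had 3 probe sets. The brightest differed by -0.20 ± 0.10 and did not pass, the second differed by -0.0030 and did not pass, and the dimmest, below the median of all probe sets at both ages, fell by 0.43 (adjusted p = 0.0360). The hexokinase genes Hex-A (-0.10 ± 0.07) and Hex-C (0.14 ± 0.06), whose enzymes phosphorylate glucose, did not pass.

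Of 10 measured genes that control sugar stores, 2 rose and 0 fell (limma), against 15.8% and 10.7% of all genes. At an unadjusted p under 0.05 (limma) 2 were also higher and 0 lower, against 2788 and 2153 of 11982 genes. Nothing is read from these counts. Of the genes that rose, the first was foxo, a transcription factor that insulin signalling holds back. It read 7.32, 7.27 and 7.31 in aged heads against 6.79, 6.66 and 6.55 in young heads (0.63 ± 0.08, adjusted p = 0.00219). The second was daw, an activin-type ligand, which rose by 0.36 ± 0.07 (adjusted p = 0.0123), or by 0.32 with adjusted p = 0.0567 without aged replicate 1. The daw probe set also has an identifier ending in _s_at. Sik3, a kinase of energy metabolism, was another gene whose probe sets went apart: the brighter one differed by -0.10 ± 0.07 and did not pass, while the dimmer one rose, with 5.002, 4.91 and 4.97 in aged heads against 4.33, 4.21 and 4.40 in young heads (0.65 ± 0.07, adjusted p = 0.00148). AkhR, the receptor of the adipokinetic hormone that mobilises stores, differed by -0.04 ± 0.08, and the sugar sensor gene Mondo by 0.09 ± 0.06 (neither passed). Akh itself was near background.

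Of 11 maltase and glucosidase genes, Mal-B1 rose by 0.52 ± 0.11 (adjusted p = 0.0141; 0.0569 without aged replicate 2), and the other 10 did not pass. Mal-A1 read 5.58, 5.51 and 5.55 in aged heads, against 5.93, 7.998 and 6.03 in young heads, and its difference of -1.11 ± 0.50 did not pass (adjusted p = 0.162), with young replicate 2 far above the other arrays. Over all 11982 genes 15.8% were called higher and 10.7% lower.

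**Figure D4:**
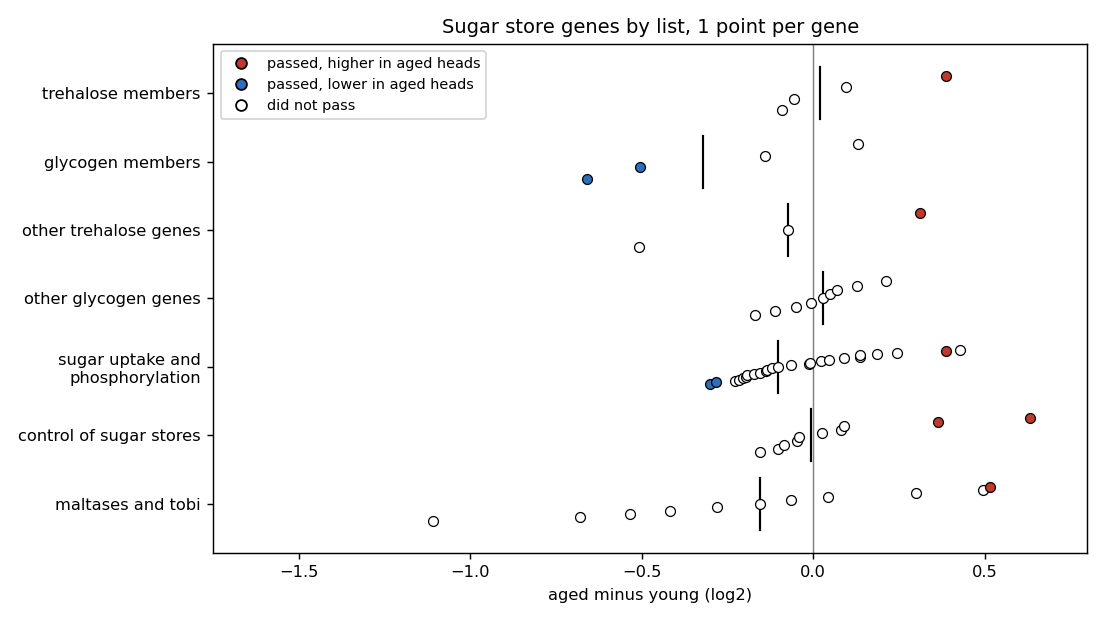
Difference between the ages (horizontal axis, aged minus young on the log2 scale) of every measured gene, by list; each point is 1 gene, filled red or blue where it passed as higher or lower in aged heads, and the black line is the list's median. Of the 2 groups of members, the glycogen genes have the lower median, -0.32, and on the list of other glycogen genes none passed.

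The gene most like Glyp across the 6 arrays was MESK2 (Pearson's r = 0.998), followed by ATPsyndelta, a subunit of ATP synthase (r = 0.996), and bumpel, of the sodium-coupled solute transporter family (r = 0.996). MESK2 was at 9.32 ± 0.03 in aged heads and 9.81 ± 0.07 in young heads (SD, n = 3 each). All 6 points share the split by age, and 264 of 2749 genes compared had r above 0.95, so an r above that level is common among them. The genes named are those with the highest r, and that count does not say how common their values are. Genes compared had to span at least 0.5 over the arrays, which a difference between the ages helps a gene to reach.

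Some markers of the cell types in a head also differed between the ages. Beside the counts below, 15.8% of all genes were called higher and 10.7% lower (limma). Of genes that reached the median level of all probe sets, 37.3% were called in either direction. The lists hold few markers, and nothing is read from their counts. A listed gene counted as measured only where a probe set carried its symbol alone. Syt1, Eaat1, ninaE, ninaC, Mhc and wupA were listed but not read for this reason, which need not mean that the array lacks them. Of 6 measured glial markers 3 were lower (Gs2, alrm and nrv2) and the others did not pass, and their mean level ranged over 9.82 to 9.92 on aged arrays and 10.07 to 10.16 on young arrays. Of 4 measured muscle markers 2 were lower and the others did not pass, at a mean of 5.02 to 5.42 on aged arrays and 5.94 to 7.45 on young arrays. The 2 that were lower were Act88F and up. On young replicate 2 fln read 6.04 and TpnC4 5.82, while both were near background on the other arrays. Of 8 fat body markers 1 was lower and the others did not pass, at 8.21 to 8.54 on aged arrays and 8.10 to 9.60 on young arrays, with Fbp1 near background. The wide young range comes mostly from yolk protein genes, since Yp1 read 4.02, 7.76 and 10.17 and Yp2 3.95, 5.24 and 8.54 on the young arrays, whereas apolpp read 12.79, 12.82 and 12.84. Of 5 haemocyte markers 4 were higher and the other did not pass, at 7.22 to 7.40 on aged arrays and 6.69 to 6.80 on young arrays, with He near background. Of 4 measured neuronal markers 2 were lower, brp and Syn (9.24 to 9.43 on aged arrays, 9.42 to 9.60 on young arrays), and of 4 measured photoreceptor markers 1 was lower (12.69 to 12.80 on aged arrays, 12.85 to 12.91 on young arrays). The brightest probe set of brp gave its call as lower, at -0.44. Its other probe sets stood at 0.46, 0.11 and 0.05, the last 2 near background, and nSyb stood at 0.30 (none passed). No single direction can be given for brp. The part of these markers in the differences of Treh, Glyp and Glys was not tested.

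Fly control transcripts are probed at both ends, and their 3′ signal minus their 5′ signal reflects RNA quality and labelling. It was averaged over 5 pairs of probe sets for actin, GAPDH and eIF-4a, in which actin and GAPDH each occur more than once. The mean was 1.99 ± 0.03 on aged arrays and 2.51 ± 0.14 on young arrays (SD, n = 3 each, exact permutation p = 0.1, the smallest possible). It moved with age, as did the gene differences, and the 2 cannot be told apart in this design. Medians of the arrays lay between 4.85 and 4.93.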

How the data were processed

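The authors deposited log2 values made with RMA, per the submitters' processing notes, which also list limma; versions are not given in these sources. Since RMA brings the distributions of the arrays close to each other, a change in total RNA per head is not seen. The deposited values were not fully equal, with array medians of 4.93, 4.93 and 4.92 in aged heads and 4.88, 4.93 and 4.85 in young heads. Of 18952 probe sets, 183 controls were left out of the tests. Names came from the array platform's annotation, with symbols checked against RefSeq (13544 of 13647 probe sets with 1 symbol matched by gene identifier). GlyP and GlyS are spelled Glyp and Glys there. A gene with several probe sets was read through the one with the highest mean.

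The fit used all 6 arrays and no covariates (limma 3.58.1, lmFit then eBayes, in R 4.3.3), with p-values adjusted over all 18769 probe sets by Benjamini-Hochberg; the script was tested on simulated data. Differences are aged minus young. For ratios of gene pairs the arrays' ages were permuted exactly, two-sided. The genes, lists and pairs were chosen with earlier results of these data known. Named from each list were up to 3 genes that passed at or above the median level, taken by size of difference, or else the 1 with the smallest p; the others named were chosen after their values were seen. For likeness, genes at that level whose arrays spanned at least 0.5 were ranked by Pearson's r. Alternatives were limma-trend, a filter on dim probe sets, median centring, quantile normalization, array weights, leaving out shared probe sets, averaging a gene's probe sets, the replicate number as a block, and leaving out each array; leaving out 2 arrays together was added after the data were seen. 1 list item is not reported here, sgg was not analysed here, and no sequences or coordinates were used.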

Additional observations from a re-analysis of the deposited data

How the results depend on the processing

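Glyp and Glys kept their direction and their call under every alternative that could be run for them, with differences of -0.70 to -0.59 and -0.55 to -0.49. Treh ranged over 0.34 to 0.42 and lost its call only without young replicate 2 and aged replicate 3 together (adjusted p = 0.0521), which left 0 of the 8 genes called higher. Without probe sets whose identifiers end in _s_at, _x_at or _a_at, only Tps1, Glyp and AGBE could be read, and 1 was called (0 higher, 1 lower); fewer genes tested gives that count. Tret1-2 ranged over -0.11 to 0.0043 with single arrays left out and changed sign without aged replicate 3 (0.0029) and without young replicate 1 (0.0043); the cause was not tested. Pgm2a passed with its probe sets averaged (0.29, adjusted p = 0.0242). Leaving out single arrays gave 2302 (without aged replicate 1) to 4027 called probe sets, 1377 to 2371 higher and 925 to 1659 lower, against 4071 on all arrays, and dropping both young replicate 2 and aged replicate 3 gave 2492 (1462 higher, 1030 lower). The 4 ratios kept their sign under centring, quantile normalization and with each array left out, but that of Glyp to Glys ranged over -0.19 to -0.10, with an exact permutation p of 0.3 without young replicate 1 or aged replicate 3 and 0.2 after quantile normalization; none could be computed without shared probe sets, since each holds Treh or Glys. Same-numbered arrays had deviations correlated at 0.10, -0.02 and -0.06 over all probe sets, and the other combinations at -0.09 to 0.08, so the numbers were not taken as pairs. Among the 8 genes, replicate 1 was the highest array of its age for 5 in aged heads and for 6 in young heads. With the replicate block, 3343 probe sets passed, and the same 3 of the 8 genes, and exact sign-flip permutation of the ratios gave p = 0.25, the smallest that 3 pairs allow.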
